A study of Mus musculus with 12 samples.

Results

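Neutrophils carry their antimicrobial proteins in granules and their sensors of bacteria, lipids and cytokines on the surface, and 32 genes for such proteins are described here in tumours of 4 mouse mammary carcinoma lines. The genes were listed by name, and a gene was measured where at least 3 probesets of the array carried its symbol alone. Of the 32 genes, 28 were measured, among 15025 genes in all. S100a9 and Ltb4r1 sat just inside this limit, with 3 probesets each, and Fpr1, a formyl peptide receptor, just outside it with 1. The means of the Fpr1 probeset were 7.95 in 67NR, 7.57 in 168FARN, 8.12 in 4T07 and 7.87 in 4T1. Olfm4, Retnlg and Elane matched no probeset by a single symbol and were not analysed here.

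The samples were primary tumours of 67NR, 168FARN, 4T07 and 4T1, related lines grown in female BALB/c mice, 3 months old, by injection of cells into the fourth mammary fat pad, with no further treatment or engineered allele named in the labels. The labels list 8, 11, 15 and 13 injected mice for these lines in that order, and each line has 3 arrays. The host is of the strain the lines came from and keeps its neutrophils, so the RNA of a tumour mixes tumour and host cells. The lines are known to differ in spread: 67NR tumours stay in place, 168FARN spreads as far as lymph nodes, 4T07 arrives in the lung but forms no visible nodules there, and 4T1 metastasizes fully. Each behaviour is represented by 1 line, so line and behaviour cannot be told apart. The study design names 3 tumours of each line, but nothing states that they came from separate animals. The p-values measure the spread between arrays, part of which may be technical.

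Neutrophils mature in the bone marrow and make their granule proteins in waves. Primary granules with myeloperoxidase and serine proteases come first, then secondary granules with lactoferrin, lipocalin and cathelicidin, while the calgranulins fill the cytosol. Growth factors such as granulocyte colony-stimulating factor release the cells into blood, and CXC chemokines draw them into tissue. 4T1 tumours are known for a strong rise of granulocytes in the host.

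Granule genes are known to be switched on by factors of the C/EBP family and by PU.1. The promoters of 4 genes that were high together, Ngp, Lcn2, S100a8 and S100a9, were chosen after their values were seen and are shown to set such motifs beside the levels. Each runs from 250 bases before to 50 bases after the RefSeq start, 5′ to 3′ on the strand of the gene, in build GRCm38.p6. Capitals mark matches, on either strand, to the C/EBP motif TTGCNNAA or the PU.1 motif GAGGAAGT. Ngp lies at chr9:110419558-110419857 (plus strand), Lcn2 at chr2:32387690-32387989 (minus), S100a8 at chr3:90668821-90669120 (plus) and S100a9 at chr3:90695672-90695971 (minus).
Ngp: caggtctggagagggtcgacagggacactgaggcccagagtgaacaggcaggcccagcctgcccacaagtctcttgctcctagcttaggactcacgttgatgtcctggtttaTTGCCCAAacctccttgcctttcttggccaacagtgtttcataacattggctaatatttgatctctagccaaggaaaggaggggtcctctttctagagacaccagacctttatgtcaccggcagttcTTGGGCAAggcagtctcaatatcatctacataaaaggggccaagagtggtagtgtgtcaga
Lcn2: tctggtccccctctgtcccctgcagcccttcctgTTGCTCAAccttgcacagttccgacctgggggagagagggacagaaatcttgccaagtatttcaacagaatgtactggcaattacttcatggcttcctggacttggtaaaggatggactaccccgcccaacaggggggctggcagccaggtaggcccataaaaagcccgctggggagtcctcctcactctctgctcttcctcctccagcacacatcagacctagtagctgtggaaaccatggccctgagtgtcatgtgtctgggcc
S100a8: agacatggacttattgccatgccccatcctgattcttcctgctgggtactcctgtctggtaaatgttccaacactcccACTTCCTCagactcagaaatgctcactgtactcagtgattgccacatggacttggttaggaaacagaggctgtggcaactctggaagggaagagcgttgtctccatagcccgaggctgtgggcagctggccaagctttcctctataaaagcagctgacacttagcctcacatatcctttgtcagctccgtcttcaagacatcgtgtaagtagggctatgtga
S100a9: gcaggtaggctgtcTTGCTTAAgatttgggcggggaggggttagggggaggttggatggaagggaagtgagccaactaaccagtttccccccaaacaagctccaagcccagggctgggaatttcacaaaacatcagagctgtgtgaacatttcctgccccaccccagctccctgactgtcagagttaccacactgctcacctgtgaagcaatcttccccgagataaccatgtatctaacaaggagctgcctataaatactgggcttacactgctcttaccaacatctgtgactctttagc
Ngp held 2 C/EBP matches, starting 138 and 11 bases before the start, Lcn2 held 1 at 216 and S100a9 held 1 at 236. S100a8 held a PU.1 match 172 bases before its start. RefSeq promoters were found for 28 of the 32 genes, 29 promoters in all. Ncf4, Trem3, Cebpe and Alox5ap are named only. The C/EBP motif was in 7 of the 29 (24.1%), against 10.8% of all 32851 promoters of the table, and the other matches were in Ltf, Clec4e, Gfi1 and Retnlg. The PU.1 motif was in 6 (20.7%), in S100a8, Mpo, Elane, Prtn3, Olfm4 and Ltb4r1, against 3.2% of all. A kappa B motif of 10 letters, the site of the NF-kappa B family, was in 1 of the 29, that of Pglyrp1 (3.45%), against 0.411%. The promoters of Padi4, Trem1, Il1r2 and Cd177, genes described below as higher in 4T07, held no match to any of these motifs. Gfi1 held a C/EBP match and was not called in any pair of lines. Whether matches went with levels was not tested. A match is a description of the letters and not a site of binding.

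Levels are log2 signals, the median over the probesets of a gene, and array numbers are the replicate numbers of the labels. Array medians lay between 7.21 and 7.57. The 335 olfactory receptor genes, taken as silent here, had a median of 3.12 and a 95th percentile of 5.08, and a level under 5.08 is called background. Against a line in the background a fold is given as at least the brighter mean over 5.08. Genes were called at an adjusted p under 0.05 in a limma fit of all 12 arrays, and values after ± are SD over n = 3 arrays. Markers of skeletal muscle stood apart on 168FARN arrays 2 (mean level 8.26) and 3 (9.25), against 5.31 to 6.34 on the other arrays, so calls for 168FARN that were lost with its array 1 alone are named.

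Most of the 28 genes were lowest in 67NR or 168FARN and highest in 4T07. By mean level, 18 were highest in 4T07, 5 in 4T1, 3 in 168FARN and 2 in 67NR, while over all genes 2589 of 15025 were highest in 4T07. The mean level of the 28 genes was 6.53, 6.67 and 6.78 on the 67NR arrays and 7.09, 6.78 and 6.76 on the 168FARN arrays. It was 7.75, 8.04 and 7.92 on the 4T07 arrays and 7.51, 7.69 and 7.46 on the 4T1 arrays. The arrays of 4T07 lay above those of 4T1, and both above those of the other lines. Mean levels of lymphocyte markers were also highest in 4T07. The mean level of 5 B cell markers was 5.83 ± 0.13 in 67NR, 6.24 ± 0.51 in 168FARN, 7.73 ± 0.80 in 4T07 and 6.85 ± 1.33 in 4T1. That of 6 T cell markers was 6.61 ± 0.29, 5.90 ± 0.12, 7.32 ± 0.48 and 6.62 ± 0.44. Against 67NR, 1 B cell and 2 T cell markers rose in 4T07 (11% of all genes). In 4T1 0 of either rose (2 B cell markers and 0 T cell markers at an unadjusted p under 0.05), where 9.38% of all genes were called higher. In 4T07 against 168FARN, 5 T cell markers were higher (11.4% of all genes). The part of lymphocytes in the levels of the 28 genes was not tested.

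**Figure D1:**
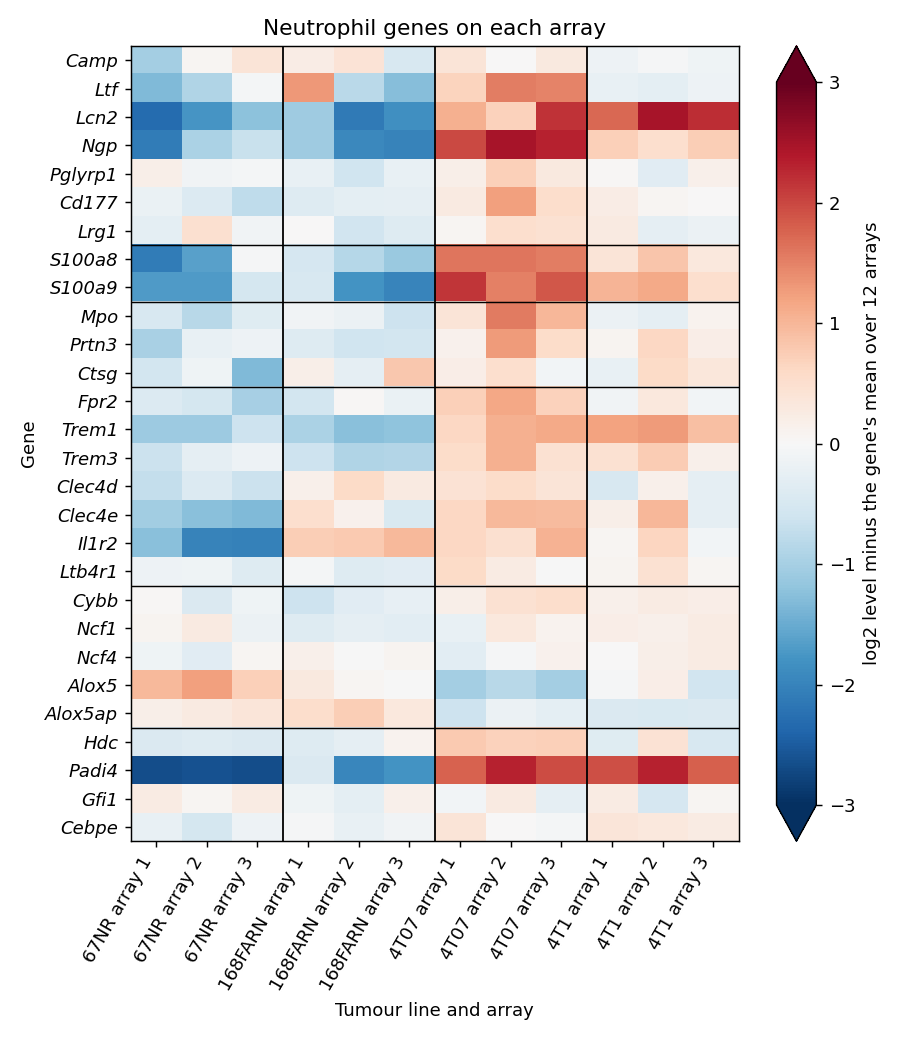
Heat map of the 28 measured genes (rows, grouped by role) on the 12 arrays (columns, 3 per line), coloured by the log2 level minus the mean of the gene over the 12 arrays. Most rows are higher on the 4T07 and 4T1 arrays than on the 67NR and 168FARN arrays, and Alox5 and Alox5ap run the other way.

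Among the 4 lines 22 of the 28 genes differed by the moderated F-test, where 42% of all genes did. Camp, Lrg1, Ctsg, Ncf1, Ncf4 and Gfi1 were not called. Against 67NR, 17 genes rose in 4T07 (11% of all genes were called higher) and 2 fell (12.7% lower), and 16 of the 17 rose at least 2-fold (5.48% of all genes). In 4T1, 11 rose (9.38%) and 2 fell (13%), and 8 rose at least 2-fold (4.59%). In 168FARN, 4 rose (13.5%) and 1 fell (11.2%), a share near that of all genes. The median change was 1.08 in 4T07, 0.55 in 4T1 and 0.17 in 168FARN, with medians of all genes of -0.04, -0.04 and 0.04. All 3 arrays of 4T07 exceeded all 3 of 67NR in 21 of 28 genes, where 16.4% of all genes did. For 4T1 this held in 16 genes (18.7%). The 3 comparisons share the 67NR arrays. In these bulk samples fewer cells of a type and less RNA per cell cannot be told apart.

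**Figure D2:**
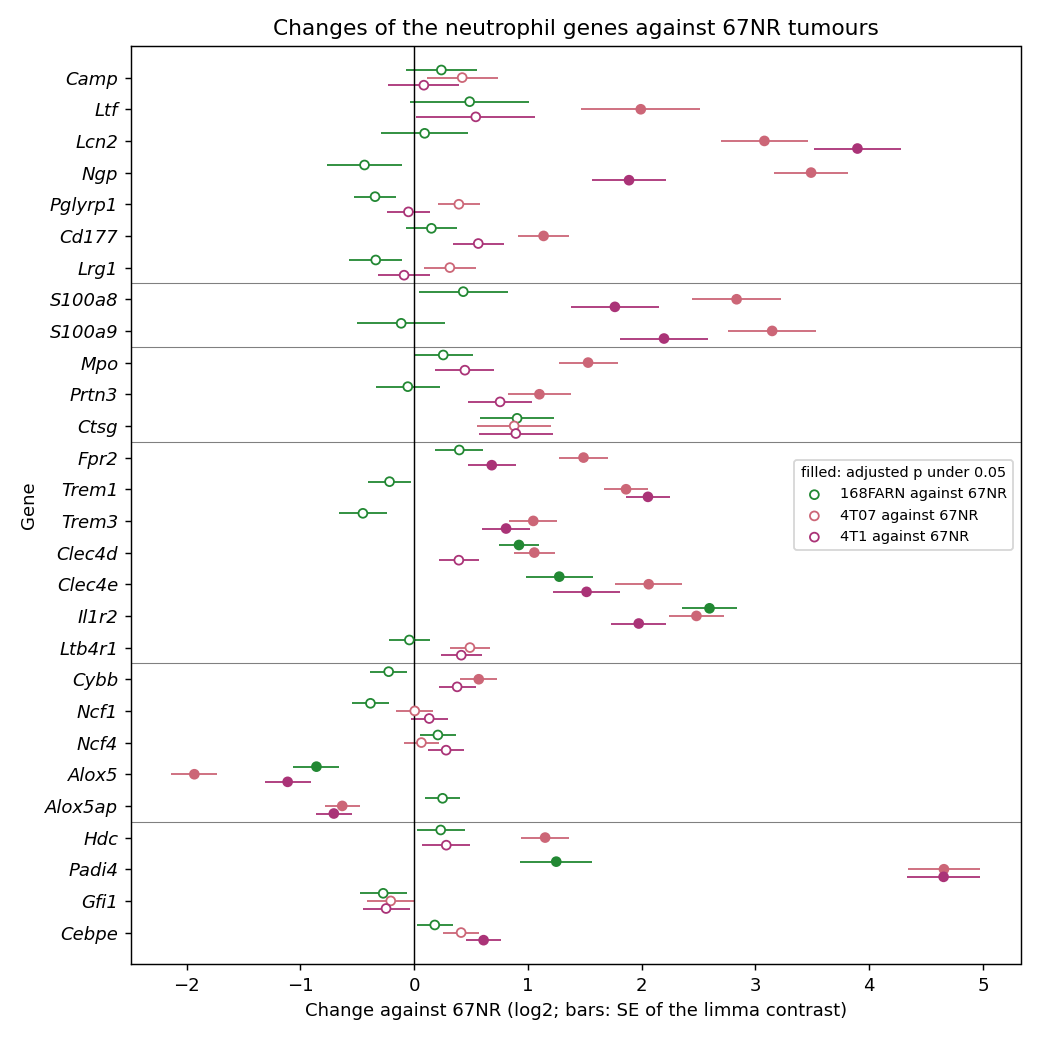
Log2 change of each of the 28 genes in 168FARN, 4T07 and 4T1 against 67NR (limma contrast, bars are its standard error, filled points have an adjusted p under 0.05). Padi4 has the largest changes, 4.66 in 4T07 and 4.65 in 4T1, and Alox5 is below 0 in all 3 lines.

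Padi4, the deiminase that citrullinates histones when neutrophils cast out their chromatin, had the largest change of the 28 genes against 67NR in 4T07 and in 4T1. Its levels were 5.62, 5.67 and 5.63 in 67NR, 7.86, 6.32 and 6.49 in 168FARN, 10.05, 10.60 and 10.24 in 4T07, and 10.22, 10.59 and 10.08 in 4T1. The 67NR arrays were lowest and nearly equal, 168FARN array 1 stood above the other arrays of its line, and 4T07 and 4T1 overlapped far above both. Padi4 rose 25.2-fold in 4T07 (log2 4.66, SE 0.318, adjusted p = 3.97e-07) and 25.2-fold in 4T1 (adjusted p = 3.42e-07). In 168FARN it rose 2.38-fold (adjusted p = 0.0113). Between 4T1 and 4T07 it differed by -0.00, with a 95% interval from -0.69 to 0.68 on the log2 scale. Of its 17 probesets, 16 were called higher in 4T1 than in 67NR, by 0.70 to 6.76, where 6.06% of all probesets were. The mean level of 10 epithelial markers was 6.10, 6.84, 9.07 and 9.43 in 67NR, 168FARN, 4T07 and 4T1. The part of epithelial cells in the level of Padi4 was not tested.

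Among 7 secondary granule and secreted proteins, 4 rose in 4T07 (11% of all genes) and 2 in 4T1 (9.38%) against 67NR. In 168FARN 0 passed the test (0 also at an unadjusted p under 0.05), where 13.5% of all genes were called higher and 11.2% lower. With 7 genes this count is not set apart from those shares. Lcn2, the lipocalin that withholds iron from bacteria, was at 8.02, 8.54 and 9.09 in 67NR and 9.25, 8.20 and 8.48 in 168FARN. It was at 11.38, 11.02 and 12.49 in 4T07 and 12.04, 12.78 and 12.52 in 4T1. Every array of 4T07 and 4T1 lay above every array of the other lines. Lcn2 rose 8.45-fold in 4T07 (adjusted p = 6.45e-05) and 14.9-fold in 4T1 (log2 3.90, SE 0.384, adjusted p = 8.38e-06). All 8 of its probesets were called higher in 4T1 than in 67NR, by 2.89 to 4.34. Lcn2 is also made by epithelial cells, whose markers moved with it. The mean level of 10 epithelial markers was 5.88 to 6.48 on the 67NR arrays, 6.76 to 6.88 in 168FARN, 8.47 to 9.89 in 4T07 and 9.32 to 9.59 in 4T1. Of these markers 9 rose in 4T07 (11% of all genes) and 10 in 4T1 (9.38%) against 67NR. Their part in the level of Lcn2 was not tested.

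Ngp, a cystatin-related protein of secondary granules, was in the background by its means in 67NR and 168FARN. Its levels were 3.67, 4.81 and 5.10 in 67NR, 4.69, 3.82 and 3.76 in 168FARN, 7.74, 8.23 and 8.08 in 4T07, and 6.48, 6.26 and 6.49 in 4T1. The arrays of 4T1 lay between those of 4T07 and those of the other lines, with no overlap. Ngp was at least 7.65-fold higher in 4T07 than in 67NR (adjusted p = 6.42e-06), and at least 2.52-fold higher in 4T1 (adjusted p = 0.000958). Without 67NR array 1 it was lower in 168FARN than in 67NR (log2 -0.87, adjusted p = 0.0386), with both in the background.

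Ltf, which encodes lactoferrin, was at 5.28, 5.70 and 6.54 in 67NR and at 7.89, 5.78 and 5.32 in 168FARN. It was at 7.27, 8.14 and 8.09 in 4T07 and at 6.39, 6.31 and 6.45 in 4T1. Array 1 of 168FARN reached the range of 4T07, and the other arrays of that line did not. Ltf rose 3.98-fold in 4T07 against 67NR (adjusted p = 0.0139), a call lost without 67NR array 1 (adjusted p = 0.0577). Against 168FARN it was 2.84-fold higher in 4T07 (adjusted p = 0.0466) and 4.87-fold higher without 168FARN array 1. That call was lost without any 1 of 8 other arrays, with adjusted p from 0.0571 to 0.189. With 168FARN array 1 alone, Ltf was 2.05 higher in 168FARN than in 67NR on the log2 scale (adjusted p = 0.0113).

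Cd177, a surface protein also stored in granules, rose 2.20-fold in 4T07, from 6.26, 6.06 and 5.70 in 67NR to 6.74, 7.70 and 6.98 (adjusted p = 0.00209). In 4T1 its mean was 6.57 ± 0.11 (adjusted p = 0.0901), and the call appeared without 4T07 array 2 (adjusted p = 0.0267). Pglyrp1, which binds bacterial peptidoglycan, rose 1.67-fold in 4T07 against 168FARN alone among the pairs of lines (7.03, 7.55 and 7.14 against 6.63, 6.25 and 6.64, adjusted p = 0.00975). With 168FARN array 1 alone this call was lost (log2 0.61, adjusted p = 0.16). Camp, the cathelicidin, had means of 5.85 ± 0.75, 6.09 ± 0.47, 6.27 ± 0.20 and 5.93 ± 0.07 in 67NR, 168FARN, 4T07 and 4T1. Lrg1, a secreted glycoprotein, had means of 7.33 ± 0.40, 6.99 ± 0.30, 7.64 ± 0.25 and 7.24 ± 0.29. Neither was called in any of the 6 pairs of lines, and their line means lay within 1 unit of each other on the log2 scale. Lrg1 passed the test in 4T07 against 168FARN without any 1 of 5 arrays, with adjusted p from 0.0286 to 0.0486. With the mean of the probesets it was called higher in 4T07 (adjusted p = 0.00206) and 4T1 (0.015) than in 168FARN. It was then also lower in 168FARN than in 67NR (0.0231). With probesets above the 25th percentile alone, Camp was called higher in 4T07 than in 67NR (adjusted p = 0.0386).

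S100a8 and S100a9, which form the calcium-binding calprotectin, both rose in 4T07 and 4T1. S100a8 was at 5.72, 6.18 and 7.79 in 67NR, 7.32, 6.96 and 6.70 in 168FARN, 9.42, 9.42 and 9.35 in 4T07, and 8.21, 8.64 and 8.13 in 4T1. Array 3 of 67NR stood apart upward, and even so lay below all arrays of 4T1. S100a8 rose 7.13-fold in 4T07 (adjusted p = 0.000145) and 3.40-fold in 4T1 (adjusted p = 0.00508). Without 67NR array 3 these folds were 10.9 and 5.20, and S100a8 was then also higher in 168FARN (log2 1.04, adjusted p = 0.00611). S100a9 was at 5.02, 5.03 and 6.18 in 67NR, 6.25, 4.92 and 4.73 in 168FARN, 8.86, 8.23 and 8.59 in 4T07, and 7.74, 7.85 and 7.23 in 4T1. In 67NR and 168FARN, 4 of the 6 S100a9 arrays were under the background level, which limits its folds. The lines fell into the same order for both genes at the top, with 4T07 above 4T1 and no overlap between them. S100a9 rose 8.86-fold in 4T07 (adjusted p = 5.86e-05) and 4.58-fold in 4T1 (adjusted p = 0.00109). All 4 S100a8 probesets and all 3 S100a9 probesets were called higher in 4T1 than in 67NR.

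**Figure D3:**
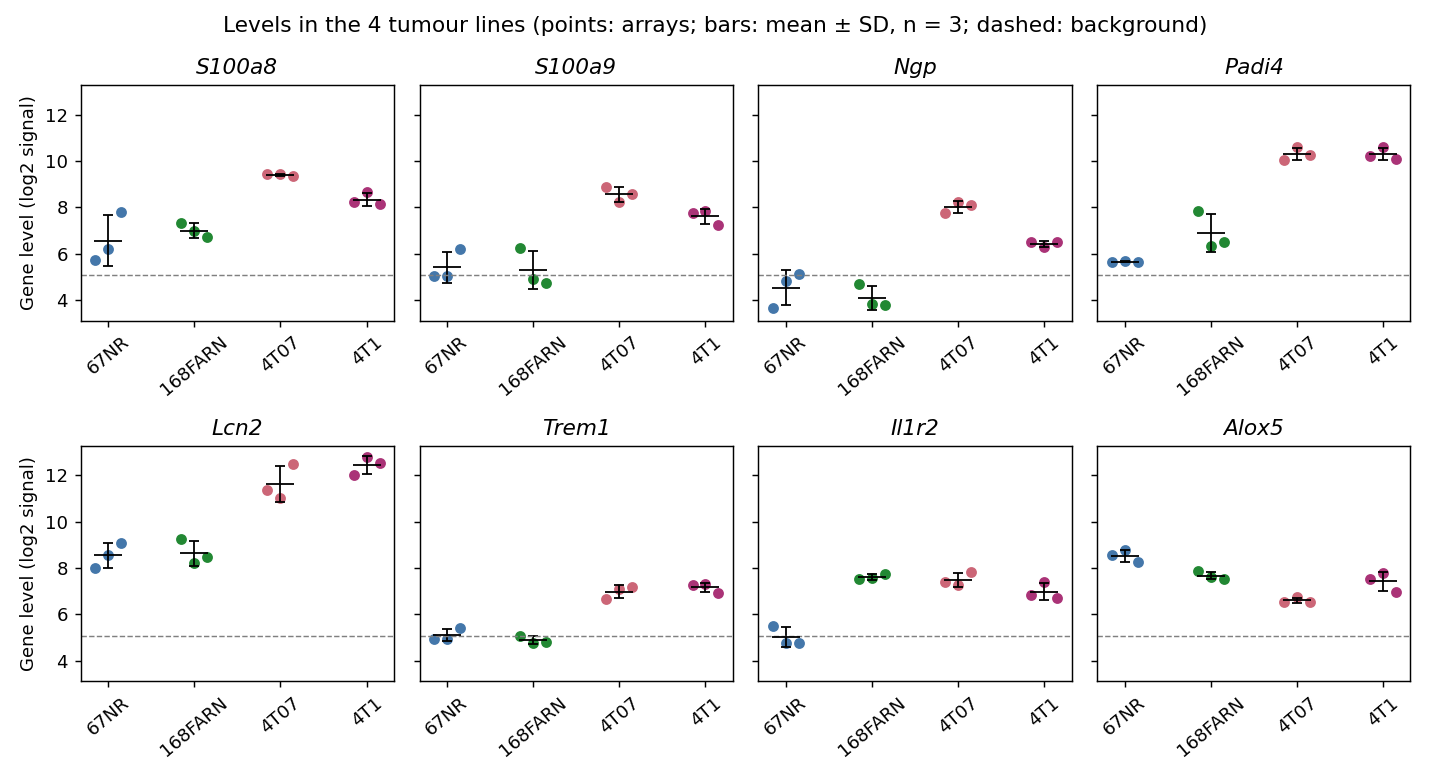
Log2 levels of 8 genes on each array (points), with the mean and SD of each line (bars, n = 3) and the background level of 5.08 (dashed line). Ngp, S100a8 and S100a9 are highest in 4T07, Padi4 is alike in 4T07 and 4T1, Il1r2 is low in 67NR alone, and Alox5 is highest in 67NR.

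Of 3 primary granule enzymes, 2 rose in 4T07 against 67NR (11% of all genes). In 4T1 0 passed the test (2 at an unadjusted p under 0.05), where 9.38% of all genes were called higher and 13% lower. With 3 genes this count is not set apart from those shares. Mpo, the peroxidase that makes hypochlorous acid, was at 4.98, 4.62 and 5.11 in 67NR, 5.35, 5.29 and 4.83 in 168FARN, 5.84, 7.01 and 6.44 in 4T07, and 5.28, 5.19 and 5.57 in 4T1. The 4T07 arrays lay above all others, and the other lines stayed near the background. Mpo was at least 2.55-fold higher in 4T07 than in 67NR (adjusted p = 0.000757). Prtn3, the serine protease proteinase 3, rose 2.15-fold in 4T07, from 6.10 ± 0.45 to 7.21 ± 0.58 (adjusted p = 0.0114), a call lost without 67NR array 1 (adjusted p = 0.0545). In 4T1 it was at 6.86 ± 0.29 (adjusted p = 0.0717), and it passed the test without 4T07 array 1 (adjusted p = 0.0467) or 2 (0.0318). Ctsg, which encodes cathepsin G, was at 4.76 ± 0.60 in 67NR and at 5.66 ± 0.54, 5.64 ± 0.28 and 5.65 ± 0.42 in 168FARN, 4T07 and 4T1. Its adjusted p against 67NR was 0.0595, 0.069 and 0.0676. Without 67NR array 2 it passed the test in all 3 (adjusted p = 0.0288, 0.0333 and 0.0328). It also passed without 168FARN array 2 in 168FARN (0.0335), and without 168FARN array 3 (0.0493) or 4T1 array 1 (0.0436) in 4T1.

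Of 7 surface receptors, 6 rose in 4T07 (11% of all genes), 5 in 4T1 (9.38%) and 3 in 168FARN (13.5%) against 67NR. Of these receptors 0 fell in any of these lines (0 also at an unadjusted p under 0.05). Over all genes 12.7% fell in 4T07, 13% in 4T1 and 11.2% in 168FARN, so 0 of 7 is not set apart from those shares. Trem1, which amplifies the response to bacterial products, was at 4.95, 4.95 and 5.42 in 67NR and 5.08, 4.78 and 4.82 in 168FARN. It was at 6.65, 7.10 and 7.17 in 4T07 and 7.24, 7.32 and 6.93 in 4T1. The last 2 lines overlapped, and both lay above the other arrays. Trem1 rose 3.64-fold in 4T07 (adjusted p = 1.18e-05) and 4.16-fold in 4T1 (adjusted p = 4.67e-06) against 67NR. Against 168FARN, which was in the background, it was at least 3.71-fold higher in 4T07 and at least 4.24-fold higher in 4T1. Its relative Trem3 rose 2.07-fold in 4T07 (6.33 ± 0.33 against 5.29 ± 0.27, adjusted p = 0.00247) and 1.75-fold in 4T1 (adjusted p = 0.0134). The 4T1 call of Trem3 was lost without 67NR array 1 (adjusted p = 0.0663) or 4T1 array 2 (0.0649).

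Il1r2, the decoy receptor that takes up interleukin-1, was the receptor with the largest change in 168FARN. It was at 5.51, 4.77 and 4.74 in 67NR, 7.51, 7.55 and 7.74 in 168FARN, 7.39, 7.25 and 7.82 in 4T07, and 6.83, 7.41 and 6.69 in 4T1. The 67NR arrays were low. The 4T07 arrays overlapped with those of 168FARN and of 4T1, while all 4T1 arrays lay below those of 168FARN. Il1r2 was at least 5.74-fold higher in 168FARN (adjusted p = 6.89e-06), at least 5.30-fold in 4T07 (adjusted p = 8.18e-06) and at least 3.73-fold in 4T1 (adjusted p = 5.29e-05). In 4T1 against 168FARN it passed the test, as lower, without 67NR array 1 (log2 -0.62, adjusted p = 0.0389) or 4T1 array 2 (-0.84, 0.0242).

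Clec4e and Clec4d, lectins that sense microbial glycolipids, were also higher in 168FARN. Clec4e was at 6.05, 5.85 and 5.77 in 67NR, 7.61, 7.24 and 6.65 in 168FARN, 7.73, 8.06 and 8.05 in 4T07, and 7.28, 8.10 and 6.83 in 4T1. All arrays of the other lines lay above those of 67NR. Clec4e rose 2.42-fold in 168FARN (adjusted p = 0.00617), 4.18-fold in 4T07 (adjusted p = 0.000187) and 2.86-fold in 4T1 (adjusted p = 0.00201). Clec4d rose 1.89-fold in 168FARN (7.61 ± 0.21 against 6.68 ± 0.16, adjusted p = 0.00211) and 2.08-fold in 4T07 (adjusted p = 0.000715). In 4T1 Clec4d was at 7.08 ± 0.32, which did not pass the test. With 168FARN array 1 alone, the 168FARN call of Clec4d was lost (adjusted p = 0.0768).

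Fpr2, a receptor for formylated bacterial peptides, was at 8.44, 8.31 and 7.85 in 67NR, 8.28, 8.87 and 8.64 in 168FARN, 9.55, 9.99 and 9.53 in 4T07, and 8.74, 9.15 and 8.76 in 4T1. The 4T07 arrays were above all others. Fpr2 rose 2.81-fold in 4T07 (adjusted p = 0.000188) and 1.60-fold in 4T1 (adjusted p = 0.0338). The 4T1 call was lost without 67NR array 2 or 3 or any 1 of the 4T1 arrays (adjusted p from 0.0528 to 0.137). Ltb4r1, the high-affinity receptor for leukotriene B4, was at 6.35 to 6.61 in 67NR, 6.34 to 6.68 in 168FARN, 6.73 to 7.30 in 4T07 and 6.79 to 7.18 in 4T1. It rose 1.45-fold in 4T07 against 168FARN (adjusted p = 0.0401), a call lost without any 1 of 7 arrays (adjusted p from 0.0523 to 0.14) and with 168FARN array 1 alone (log2 0.32, adjusted p = 0.479). Against 67NR it passed the test in 4T07 without 4T07 array 3 (adjusted p = 0.0281).

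The oxidase subunits differed from 67NR by less than 1 on the log2 scale in every line. Cybb, the catalytic subunit of the phagocyte NADPH oxidase, rose 1.48-fold in 4T07, from 10.61 ± 0.23 to 11.18 ± 0.18 (adjusted p = 0.0224). This call was lost without 67NR array 2 (adjusted p = 0.111), 4T07 array 2 (0.0655) or 4T07 array 3 (0.067). The cytosolic subunits Ncf1 (8.64 ± 0.22 in 67NR, 8.26 ± 0.06 in 168FARN, 8.65 ± 0.28 in 4T07, 8.78 ± 0.04 in 4T1) and Ncf4 (8.30 ± 0.19, 8.51 ± 0.08, 8.37 ± 0.23 and 8.59 ± 0.12) were not called against 67NR. With the mean of the probesets, Ncf1 was called lower in 168FARN than in 67NR (log2 -0.41, adjusted p = 0.0323). The same held with quantile normalization (log2 -0.43, adjusted p = 0.0292). Macrophages also make these oxidase subunits. The mean level of 11 macrophage markers was 10.04 to 10.14 on the 67NR arrays, 9.47 to 9.49 in 168FARN, 9.28 to 9.72 in 4T07 and 9.78 to 9.92 in 4T1. Against 67NR, 4 of them fell in 4T07 (12.7% of all genes), 3 in 4T1 (13%) and 5 in 168FARN (11.2%). In these comparisons 0 of them rose (1 at an unadjusted p under 0.05, in 168FARN), where 11%, 9.38% and 13.5% of all genes were called higher. All 11 were above background in every line, and their part in the levels of the oxidase genes was not tested.

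The genes of leukotriene synthesis ran against the rest. Alox5, the lipoxygenase of the first step, was at 8.54, 8.79 and 8.26 in 67NR, 7.85, 7.62 and 7.55 in 168FARN, 6.54, 6.73 and 6.53 in 4T07, and 7.52, 7.77 and 6.98 in 4T1. All 67NR arrays lay above all others, and all 4T07 arrays below all others. Alox5 was 3.82-fold lower in 4T07 than in 67NR (adjusted p = 1.49e-05), 2.16-fold lower in 4T1 (adjusted p = 0.00135) and 1.81-fold lower in 168FARN (adjusted p = 0.00734). The 168FARN call was lost with 168FARN array 1 alone (adjusted p = 0.176). Of its 15 probesets, 10 were called lower in 4T1 than in 67NR, where 7.58% of all probesets were. Alox5ap, which presents arachidonic acid to the lipoxygenase, fell 1.55-fold in 4T07 (10.03 ± 0.24 against 10.66 ± 0.09, adjusted p = 0.00954) and 1.63-fold in 4T1 (9.96 ± 0.01, adjusted p = 0.00497). Of 7 measured partners of the oxidase and of leukotriene synthesis, 1 rose and 2 fell in 4T07 (11% and 12.7% of all genes) and in 4T1 (9.38% and 13%), and 0 rose and 2 fell in 168FARN (13.5% and 11.2%; 0 rose also at an unadjusted p under 0.05). With so few genes these counts are not set apart from those shares. In 4T07 and 4T1 they were Cyba, the membrane partner of Cybb (log2 0.45 and 0.67), Lta4h, which makes leukotriene B4 (-0.81 and -0.92), and Ltc4s, which makes leukotriene C4 (-1.73 and -0.95, and -1.59 in 168FARN).

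Mast cells also make Alox5, Alox5ap and Hdc, and their markers fell with the first pair in 4T07 and 4T1. The mean level of 9 mast cell and basophil markers was 6.72 to 7.53 on the 67NR arrays, 6.82 to 7.18 in 168FARN, 5.58 to 5.92 in 4T07 and 5.46 to 5.81 in 4T1. In 4T07, 8 of 9 fell (12.7% of all genes) and 1 rose (11%) against 67NR. In 4T1, 7 fell (13%) and 1 rose (9.38%). In 168FARN, where Alox5 fell and Alox5ap did not pass the test (log2 0.25), 2 of 9 fell (11.2% of all genes). Cpa3 differed there by 0.04. Cpa3, the mast cell carboxypeptidase, changed by -3.48 in 4T07 and -3.66 in 4T1, and the tryptase Tpsab1 by -3.35 and -3.60. Fcer1a, of the IgE receptor, went from 6.66 in 67NR to 4.55 in both lines. Another subunit of that receptor, Ms4a2, was called lower, with all line means in the background. In 4T07 and 4T1, 3 of the 9 markers were in the background. The mean level of the 4 measured eosinophil markers was 4.17 to 4.67 in the lines, and 2 of the 4, Epx and Prg2, had a mean above background in 1 line or more. The part of mast cells in the levels of Alox5 and Alox5ap was not tested.

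Hdc, which makes histamine in mast cells, basophils and neutrophils, rose in 4T07. The 1 marker of mast cells and basophils that rose there was the basophil protease Mcpt8, from a mean of 4.75 in 67NR to 6.05 (at least 1.96-fold, adjusted p = 0.00344). In 4T1 Mcpt8 was at 5.96 (at least 1.84-fold, adjusted p = 0.00597). Its part in the level of Hdc was not tested. Hdc was at 6.93, 6.99 and 6.92 in 67NR, 6.97, 7.09 and 7.47 in 168FARN, 8.15, 8.06 and 8.09 in 4T07, and 7.01, 7.79 and 6.89 in 4T1. The 4T07 arrays lay above all others, while 4T1 overlapped with 67NR and had 1 high array. Hdc rose 2.22-fold in 4T07 (adjusted p = 0.00139). Of the transcription factors of granulocyte maturation, Cebpe rose 1.53-fold in 4T1 (6.21 ± 0.06 against 5.60 ± 0.20, adjusted p = 0.0131). The Cebpe call was lost without 67NR array 2 (adjusted p = 0.0705) or 4T1 array 1 (0.0505). Gfi1 had means of 6.12 ± 0.10, 5.85 ± 0.22, 5.92 ± 0.28 and 5.88 ± 0.39 in the 4 lines and was not called in any pair.

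Against 168FARN, 16 genes were higher in 4T07 (11.4% of all genes were called higher) and 2 lower (16.8%). In 4T1, 10 were higher (11.9%) and 2 lower (19.3%). Padi4 was 10.6-fold higher in 4T07 (adjusted p = 5.11e-06) and in 4T1 (adjusted p = 4.38e-06), and Lcn2 7.93-fold and 14.0-fold. Ngp was at least 7.65-fold higher in 4T07 and at least 2.52-fold in 4T1. S100a9 was 9.59-fold and 4.96-fold higher, and Alox5ap 1.84-fold and 1.94-fold lower. Alox5 was lower in 4T07 (log2 -1.07, adjusted p = 0.00148) and Clec4d in 4T1 (-0.53, adjusted p = 0.0373). With 168FARN array 1 alone in its group, fewer genes were higher in 4T07 and in 4T1. Calls over all genes became fewer too, so the losses are not particular to these genes. In 4T07, Ltf, Ltb4r1, Pglyrp1, Cd177 (adjusted p = 0.0627), Mpo (0.0818) and Prtn3 (0.142) then lost their calls. In 4T1, S100a9 (0.0555), S100a8 (0.285), Prtn3 (0.323), Ncf1 (0.147) and Clec4d (0.387) lost theirs. In 4T1 against 168FARN, the calls of Clec4d, Cybb, Ncf1, Prtn3 and S100a8 were lost without 1 array or another, and 7 of the 12 calls held without any 1 array. For Cybb this was 168FARN array 1 (adjusted p = 0.0532). For S100a8 it was 168FARN array 2 (0.053) or 3 (0.0672) or 4T1 array 2 (0.0708). For Clec4d it was 168FARN array 2 or 3 or 4T1 array 1 or 3 (adjusted p from 0.0626 to 0.164). For Ncf1 it was any 1 array of either line (0.0516 to 0.0811), and for Prtn3 any 1 of these 6 or 4T07 array 3 (0.0502 to 0.15). Other genes passed without 1 array. In 4T07 against 168FARN these were Clec4e (168FARN array 1, adjusted p = 0.0286, or 4T1 array 2 or 3) and Ncf1 (4T07 array 1, 0.0244). In 4T1 against 168FARN they were Cebpe (4T07 array 1, 0.0269, or 3) and Ltb4r1 (168FARN array 1, 0.0486, or 4T07 array 1).

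4T1 and 4T07 differed in few of the genes. None was called higher in 4T1 by limma (1 at an unadjusted p under 0.05, Alox5), and 0.552% of all genes were. Ngp and Mpo were called lower, and 1.82% of all genes were called lower at the same adjusted threshold. At an unadjusted p under 0.05, 10 of the 28 were lower. The share of all genes at the unadjusted threshold was not taken, so these unadjusted counts have nothing to be set against. Ngp was 3.03-fold lower in 4T1 (log2 -1.60, 95% interval -2.31 to -0.89, adjusted p = 0.0201). Mpo was 2.12-fold lower (log2 -1.08, 95% interval -1.64 to -0.52, adjusted p = 0.0464). The Ngp call was lost without 4T07 array 2 (adjusted p = 0.103) or any 1 of the 4T1 arrays (0.0617 to 0.0785). Calls over all genes, 83 higher and 274 lower with all arrays, came to 158 in all without 4T07 array 2. They came to 156, 233 and 224 without 4T1 arrays 1, 2 and 3, so the loss is not particular to Ngp. The Mpo call was lost without any 1 of 10 arrays, those other than 168FARN array 3 and 4T07 array 1 (adjusted p from 0.0525 to 0.195). Among these 10, calls over all genes were 371 without 168FARN array 1 and 531 without 4T07 array 3. Of the 28 changes, 7 were above 0, and their median was -0.34, against -0.00 over all genes.

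Several genes missed the threshold between 4T1 and 4T07 with intervals that leave out 0. S100a8 differed by -1.07 (95% interval -1.91 to -0.23, adjusted p = 0.227), S100a9 by -0.95 (-1.79 to -0.11, adjusted p = 0.296) and Ltf by -1.45 (-2.58 to -0.32, adjusted p = 0.221). Alox5 differed by 0.82 (0.38 to 1.26, adjusted p = 0.0548) and Hdc by -0.87 (-1.33 to -0.41, adjusted p = 0.0523). Calls appeared without 1 array for S100a8 (67NR array 3, adjusted p = 0.0149), Ltf (168FARN array 1, 0.0246), Alox5 (4T1 array 3, 0.0175), Clec4d (4T1 array 2, 0.0372) and Hdc (168FARN array 3, 0.0483, or 4T1 array 2, 0.00603). Lcn2 had the higher mean in 4T1, by 0.82 (-0.01 to 1.65, adjusted p = 0.387).

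**Figure D4:**
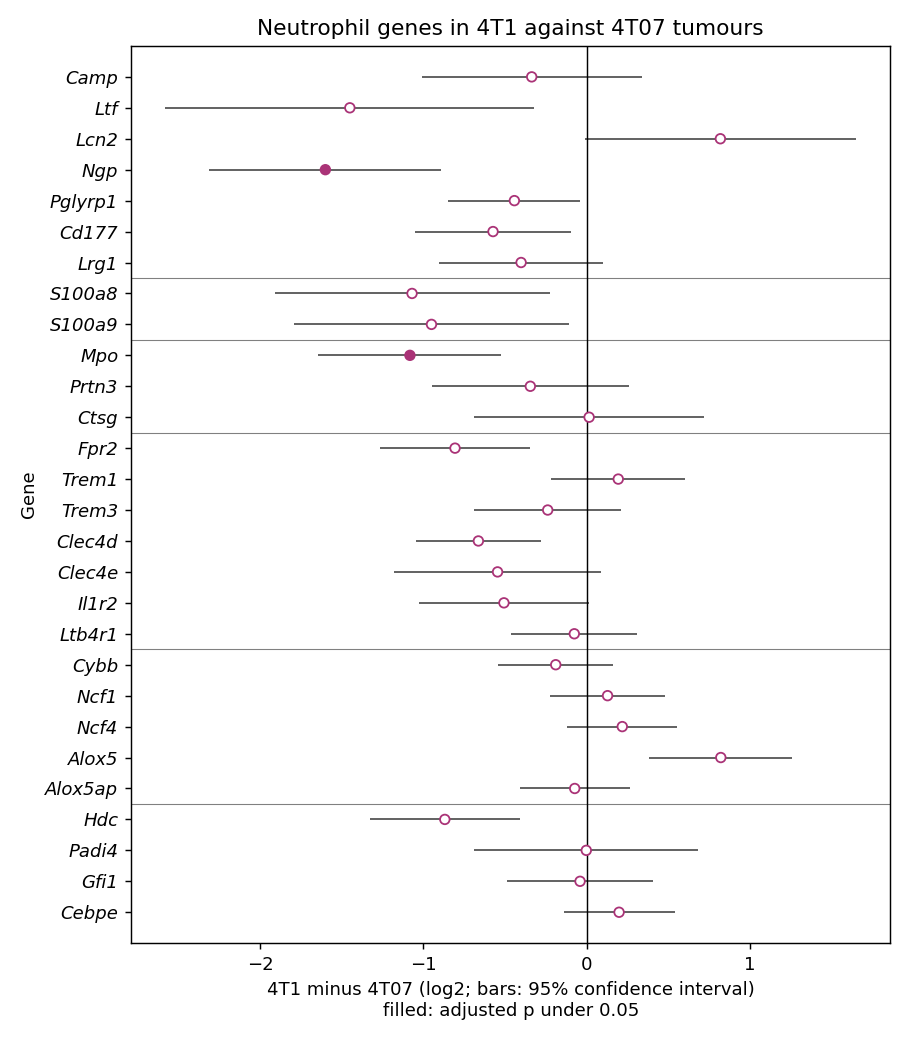
Level in 4T1 minus level in 4T07 for the 28 genes on the log2 scale (points), with 95% confidence intervals (bars), filled where the adjusted p is under 0.05. Ngp (-1.60) and Mpo (-1.08) are filled, most points lie below 0, and the interval of Padi4 is centred on 0.

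With both pairs of lines pooled, 18 of the 28 genes were higher in the mean of 4T07 and 4T1 than in the mean of 67NR and 168FARN (13.4% of all genes), and 2 were lower (21.1%). In 11 genes all 6 arrays of the first pair lay above all 6 of the second, where 5.33% of all genes did. Ltf is among the 18, and its call was lost without any 1 of 9 arrays (adjusted p from 0.0704 to 0.112). With 168FARN array 1 alone, the pooled calls of Ltf (adjusted p = 0.574), Ltb4r1 (0.116) and Cebpe (0.0788) were lost.

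A further list held other genes of neutrophils. Of 19 measured, 11 rose and 1 fell in 4T07 against 67NR (11% and 12.7% of all genes), 7 rose and 1 fell in 4T1 (9.38% and 13%), and 3 rose and 5 fell in 168FARN (13.5% and 11.2%). The 3 that rose in 168FARN are a share near that of all genes. Slpi, an inhibitor of granule proteases that epithelial cells also make, rose 24.1-fold in 4T07 (11.56 ± 0.26 against 6.97 ± 0.43, adjusted p = 7.72e-08) and 6.39-fold in 4T1. It was 3.76-fold lower in 4T1 than in 4T07 (adjusted p = 0.00142). Gca, the calcium-binding grancalcin, rose 4.12-fold in 4T07 and 4.50-fold in 4T1. Cxcr2, the receptor for CXC chemokines that draw neutrophils, rose 4.92-fold in 4T07 (adjusted p = 0.00127) and 2.86-fold in 4T1 (adjusted p = 0.0188). Serpinb1a, an inhibitor of neutrophil proteases, was 1.93-fold lower in 4T07 (adjusted p = 0.0444) and 3.17-fold lower in 4T1 (adjusted p = 0.00175).

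Growth factors and attractants of neutrophils were measured in the same tumours. Their list also held the receptor Cxcr1 and the adhesion molecules Sele, Selp, Selplg and Icam1. Of 19 measured, 10 rose and 2 fell in 4T07 against 67NR (11% and 12.7% of all genes), 7 rose and 2 fell in 4T1 (9.38% and 13%), and 3 rose and 3 fell in 168FARN (13.5% and 11.2%). The falls in 4T07 and 4T1 and the 168FARN counts are shares near those of all genes. Csf3, which encodes granulocyte colony-stimulating factor, was at 5.15, 5.36 and 5.56 in 67NR, 4.98, 5.62 and 5.73 in 168FARN, 7.09, 6.84 and 7.30 in 4T07, and 7.44, 7.62 and 7.28 in 4T1. The arrays of 4T07 and 4T1 lay above all others. Csf3 rose 3.30-fold in 4T07 (adjusted p = 4.72e-05) and 4.26-fold in 4T1 (adjusted p = 8.75e-06). Il23a, a subunit of interleukin-23, was in the background in 67NR and was at least 5.35-fold higher in 4T07 and at least 7.56-fold higher in 4T1. Cxcl2, a ligand of Cxcr2, rose 2.95-fold in 4T07 (adjusted p = 0.0113) and 3.32-fold in 4T1 (adjusted p = 0.00628). Cxcl15 was called lower in 4T1 (3.38 ± 0.60 against 5.06 ± 0.61), with both lines in the background.

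**Figure D5:**
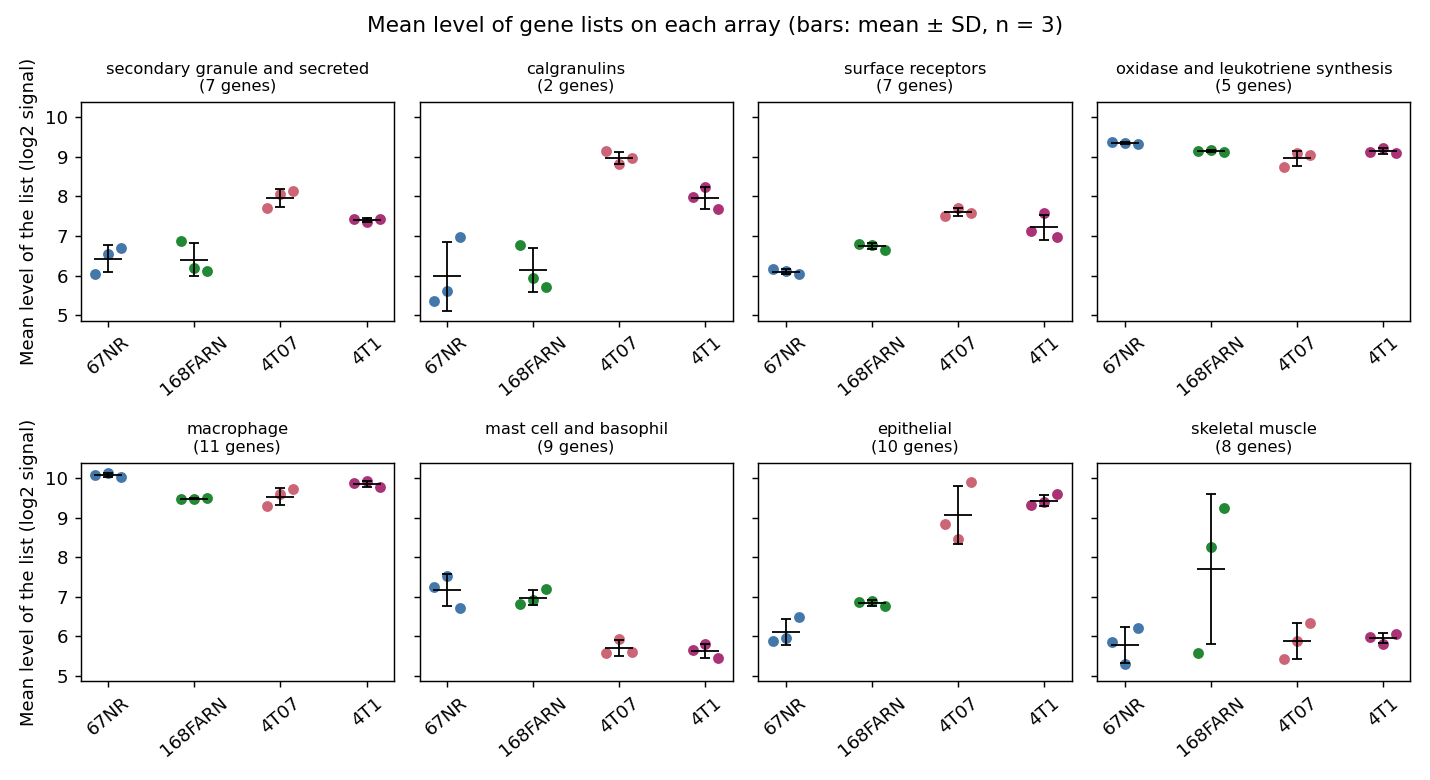
Mean log2 level of fixed gene lists on each array (points), with the mean and SD of each line (bars, n = 3). The secondary granule, calgranulin and receptor lists are highest in 4T07, epithelial markers are high in 4T07 and 4T1, mast cell markers are high in 67NR and 168FARN, and muscle markers are high on 2 of the 3 arrays of 168FARN.

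Over the 12 arrays, the median Pearson correlation between 2 of the 28 genes was 0.44, and 292 of 378 pairs were above 0, as a description over arrays that share their lines. After the line means were taken off, the median was 0.12. These medians and the count of pairs were not taken for other genes, so they are not set apart from those of other genes. Padi4 correlated with the mean of the other genes at 0.946, Ngp at 0.935 and Alox5 at -0.85. With the line means taken off these were 0.799, 0.672 and 0.41, so the sign of Alox5 turned. Outside all lists, Mob3b, Mapk8ip1, Ptpru, Nfil3 and Agrn had the levels most like the mean of the 28 genes, with correlations of 0.991, 0.975, 0.968, 0.967 and 0.966 over the 12 arrays. The next were Tgm2, Acot1, Kcnk5, Celsr1 and Zic5, at 0.966 to 0.965. Mob3b, for example, had means of 6.01, 6.57, 8.68 and 8.02 in 67NR, 168FARN, 4T07 and 4T1, the same order as the mean of the 28 genes.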

How the data were processed

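RNA of 12 tumour samples, 3 per line, was measured on Affymetrix mouse exon arrays, 1 per sample, after labelling with a whole-transcript kit, per the labels. The authors deposited log2 probeset signals. Their scale was inferred from the values, and the sources used here do not give the summarization or normalization. They were used as deposited. Array symbols of probesets with 1 symbol (207232 of 228090) were updated through RefSeq, assembly GRCm38.p6. Gene level was the median of at least 3 probesets. Genes were compared with limma 3.58.1 (lmFit, eBayes) in R 4.3.3 with data.table, version 1.17.8, 1 mean per line and no covariate, with Benjamini-Hochberg adjustment over 15025 genes, and the script was tested on simulated data. The 3 arrays per line limit the precision.

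The genes and lists were chosen with earlier results of these data known, so no list is independent evidence. All measured genes of the list are named. Of each other list up to 4 called genes with the largest change in 4T1 against 67NR are named, others being chosen after their values were seen. The 10 most alike genes were ranked by correlation with the mean of the 28. Alternatives were the mean of probesets, quantile normalization, other filters, the compared lines alone, the replicate block and leaving out each array. Fitting 168FARN array 1 alone in its group was added after seeing the data.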

Additional observations from a re-analysis of the deposited data

How the results depend on the processing

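Against 67NR, leaving out each array in turn gave 4 to 5 genes higher in 168FARN and 1 to 2 lower, 15 to 17 higher and 2 lower in 4T07, and 9 to 13 higher and 2 lower in 4T1. Against 168FARN it gave 14 to 18 higher and 2 lower in 4T07, and 7 to 12 higher and 1 to 3 lower in 4T1. Between 4T1 and 4T07 it gave 0 to 1 higher and 0 to 3 lower, for the pooled pairs 17 to 20 higher and 2 lower, and for the F-test 19 to 22. Of 259 probesets of these genes, 61 (23.6%) were called higher in 4T1 than in 67NR, against 6.06% of all probesets. Called lower were 16, against 7.58% of all. Leaving out each array gave 48 to 64 higher. Among genes called higher in 4T1, 0 of 4 probesets were called higher for Fpr2, 1 of 5 for Trem3 and 1 of 4 for Cebpe. Without any 1 array, 5 of the 5 calls held in 168FARN against 67NR, 16 of 19 in 4T07 and 10 of 13 in 4T1, and 0 of 2 between 4T1 and 4T07. The share of calls of all genes that held in this way was not taken. Calls over all genes moved too when an array was left out. In 4T1 against 67NR they lay between 2441 (without 67NR array 2) and 3676 (without 4T07 array 1). With all arrays they were 1409 higher and 1947 lower.

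The count lower in 168FARN than in 67NR went from 1 to 3 with the mean of the probesets, 2 with quantile normalization and 0 with 168FARN array 1 alone. With that array alone, the counts higher against 168FARN went from 16 to 10 in 4T07 and from 10 to 6 in 4T1. Ltf turned to -0.057 in 4T07 and -1.51 in 4T1 against it, the lone array being assumed to vary like the others. Lower in 4T1 than in 168FARN went from 2 to 1 with quantile normalization. Higher in 4T1 than in 4T07 went from 0 to 1 with the mean of the probesets, quantile normalization, genes above background alone, probesets above the 25th percentile alone, and the replicate block. Lower there went from 2 to 4 with the mean of the probesets and with genes above background alone, 5 with the filter on dim probesets (26 genes measured) and 1 with genes of at least 1 probeset. With the mean of the probesets Fpr2, Trem3 and Cebpe lost their calls in 4T1 against 67NR (adjusted p = 0.0618, 0.0719 and 0.0719).

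Same-numbered arrays shared little: the correlations of their deviations from the line means lay between -0.09 and 0.19, and 3 of 18 were above 0.1. Only 2 of 12 arrays correlated best with their own number in all other lines. With the replicate block, 18 genes rose in 4T07 and 12 in 4T1 against 67NR, and 20 passed the F-test. Beyond the count given above it moved no count of calls by over 1.5 times. The cause of these shifts was not tested. A fit on the compared lines alone was run for the counts only: against 67NR, 16 of the 28 genes were higher in 4T07, 12 in 4T1 and 4 in 168FARN. Calls of genes outside the 28 were not rerun without single arrays. Levels near the background of 5.08 limit what can be said of Ngp, Mpo, Ctsg, Trem1, Trem3, Il1r2 and S100a9 where they are low.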
